A study of Homo sapiens with 4 samples.

Results

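Hepcidin, the product of HAMP, is the liver hormone that limits the entry of iron into plasma. HAMP and 9 further genes that sense, move or store iron in hepatocytes were taken from a table of 33297 array rows by gene symbol, with the brightest row for each gene. HAMP was chosen by its measured difference, being among the largest falls after anti-miR-191, and its change is therefore given as a description without a test. The other genes were chosen for their function, although with results of these arrays known. Of the 10 genes, 9 had a row with their symbol alone (HAMP, BMP6, TFR2, HFE, TMPRSS6, SLC40A1, TFRC, SLC11A2 and FTL), each of them on 1 row, and all 9 passed the filter on dim rows that left 14147 genes. FTH1, the ferritin heavy chain, was not analysed here.

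The cells were HepG2, an established liver tumour line. All 4 cultures were grown in the same serum-containing medium and transfected with the same lipid reagent. The anti-miR-191 group received an antisense inhibitor of the microRNA miR-191, and the control group received a negative control anti-miR. Both transfections were repeated in 2 independent experiments, and each experiment contributed a treated array and its own control. The labels name no added iron, BMP ligand or cytokine, and the sources used here give neither the dose of the inhibitor nor the time of harvest. The inhibited microRNA has the mature sequence below (RefSeq, GRCh38.p14, chr3:49020672-49020694, minus strand), shown because its seed, bases 2 to 8 in capitals, is the part that pairs with target transcripts.
hsa-miR-191-5p: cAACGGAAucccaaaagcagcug

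Hepatocytes secrete hepcidin, which binds the iron exporter ferroportin on macrophages, enterocytes and hepatocytes and leads to its destruction. HAMP transcription is driven by BMP ligands through SMAD proteins, and by interleukin-6 through STAT3 during inflammation. Inside cells, iron regulatory proteins bind stem-loops called iron-responsive elements in the mRNAs of ferritin, ferroportin and the transferrin receptor. For ferritin and ferroportin, transcript and protein levels therefore need not move together.

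Values are RMA intensities on the log2 scale, in which a difference of 1 is a doubling. Differences are anti-miR-191 minus control, as the mean of both experiments ± SE, with 2 arrays per group. Levels are compared between arrays for the same gene and not between genes, because each gene has its own probes. The verbs rose and fell are kept for genes with an adjusted p under 0.05 over all 14147 genes in limma's paired fit, in which the experiment is a block. limma's SE and p-values join each gene's own spread between these cultures (1 residual degree of freedom) with that of all genes tested (6.60 prior). They measure no variation beyond these cultures, and nothing in the labels says how far the experiments were separate beyond being independent.

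Array medians lay between 4.37 and 4.43, and the middle 50% of values spanned 3.18 and 3.24 log2 units in the controls against 3.38 and 3.43 after treatment. The probe set of the MIR191 precursor read 5.22 and 5.14 after anti-miR-191 and 4.97 and 4.75 in controls (limma's adjusted p = 0.201), and since an anti-miR binds the mature microRNA, this does not check the inhibition. Of 11 hepatocyte markers, 10 had a row with a symbol of their own and all 10 lay above the limit of 3.41 for dim rows. Of 12 markers of blood, endothelial, stromal and other epithelial cells, 10 also lay above it, so a level above that limit does not by itself show expression. The mean level of these 12 markers was 4.60 on both anti-miR-191 arrays and 4.66 and 4.59 in controls. BMP6, HFE, HJV and FBXL5 had mean levels of 4.61, 3.67, 4.30 and 3.84 over the 4 arrays, so these levels do not show expression. Among the 12, LYZ had the highest mean over the 4 arrays, 9.40. In the paired test 0 of the 10 tested passed, against 13.9% of all genes. At an unadjusted p under 0.05, limma counted 3975 of the 14147 genes.

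HAMP was lower on both anti-miR-191 arrays than on either control. It read 6.22 in experiment 1 and 6.55 in experiment 2 after anti-miR-191, against 7.58 and 7.77 in the matching controls. The group means were 6.38 ± 0.23 and 7.67 ± 0.14 (SD, n = 2), and the groups did not overlap, as the choice of HAMP by its fall would lead to. The difference was -1.36 in experiment 1 and -1.22 in experiment 2, with a mean of -1.29 ± 0.15, a level 2.44-fold lower. In the order of all 14147 genes from the largest fall, HAMP stood at place 21 by its mean, at place 11 in experiment 1 and at place 60 in experiment 2. In bulk RNA, less transcript per cell and fewer cells with the transcript cannot be told apart.

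Markers of hepatocytes were read beside HAMP. The median difference of the 10 hepatocyte markers was 0.03 in experiment 1 and -0.72 in experiment 2. Transthyretin, TTR, was the 1 of them that fell in the paired fit (-1.04 ± 0.14, with -1.01 and -1.07 in the experiments, limma's adjusted p = 0.0057). This was 10% of the markers, against 3.77% of all genes tested. Albumin, ALB, had differences of 0.48 and -0.93. The apolipoprotein gene APOA1 had differences of -0.40 and -0.56, and the keratin gene KRT8 of 0.13 and 0.11. The part of these genes in the difference of HAMP was not tested.

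**Figure D1:**
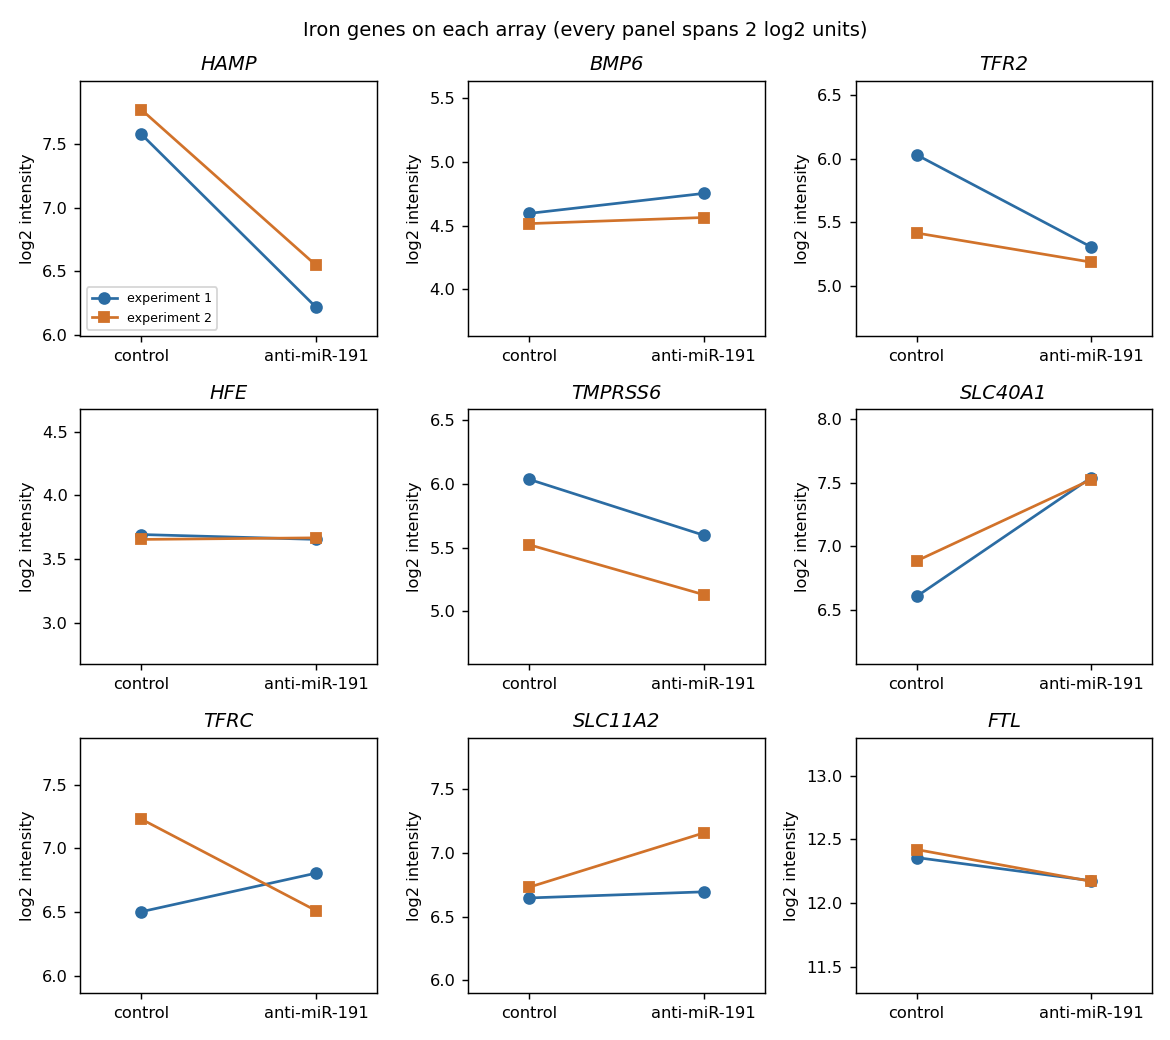
Log2 RMA intensity of the 9 iron genes on each of the 4 arrays. Lines join the control and the anti-miR-191 array of the same experiment, and every panel spans 2 log2 units. HAMP drops in parallel in both experiments from 7.58 and 7.77 to 6.22 and 6.55, SLC40A1 rises to 7.54 and 7.52, and the lines of TFRC cross.

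Of the iron genes, those that act upstream of hepcidin, BMP6, TFR2, HFE and TMPRSS6, did not pass the test. BMP6, the ligand that reports liver iron stores to hepatocytes, read 4.75 and 4.56 after anti-miR-191 and 4.60 and 4.52 in controls. These ranges overlapped, and the difference was 0.10 ± 0.15 (limma's adjusted p = 0.706). TFR2, a transferrin receptor of hepatocytes that takes part in sensing plasma iron, read 5.31 and 5.19 after anti-miR-191 and 6.03 and 5.42 in controls. Both treated arrays lay below both controls, but the controls differed more from each other than the treated array of experiment 2 did from its own control. The differences of TFR2 were -0.72 and -0.23, with a mean of -0.48 ± 0.17 (limma's adjusted p = 0.110).

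HFE, the membrane protein that is mutated in the common form of hereditary hemochromatosis and acts with TFR2, read 3.66 and 3.67 after anti-miR-191 and 3.69 and 3.65 in controls. Its level lay just above the limit for dim rows and its difference was -0.01 ± 0.14, with the sign turning under quantile normalization (0.03) and cyclic loess (0.05). TMPRSS6, the membrane protease matriptase-2 that cleaves the BMP co-receptor hemojuvelin and so lowers hepcidin, read 5.60 and 5.13 after anti-miR-191 and 6.04 and 5.52 in controls. The treated array of experiment 1 lay above the control of experiment 2, so the groups overlapped. Within the experiments the differences of TMPRSS6 were close, -0.44 and -0.39, with a mean of -0.42 ± 0.14 (limma's adjusted p = 0.103).

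SLC40A1, which encodes ferroportin, the iron exporter that hepcidin removes from the cell surface, was higher on both anti-miR-191 arrays. It read 7.54 and 7.52 after anti-miR-191 and 6.61 and 6.89 in controls. The groups did not overlap, and the treated arrays differed from each other far less than the controls did (SD 0.01 against 0.20, n = 2). The differences were 0.93 and 0.64, and SLC40A1 rose by 0.79 ± 0.15, or 1.72-fold (limma's adjusted p = 0.016). It missed the threshold in the unpaired fit, which leaves out the experiment (adjusted p = 0.055); in that fit limma called 0 of the 8 genes (1 at an unadjusted p under 0.05), against 3.91% of all genes tested (3.2% higher and 0.714% lower). It was the 1 gene of the 8 other than HAMP that passed, a share of 12.5%, where 13.9% of all genes tested passed in either direction and 10.1% rose.

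The uptake genes did not pass. TFRC, the transferrin receptor that brings transferrin-bound iron into most cells, read 6.81 and 6.51 after anti-miR-191 and 6.50 and 7.23 in controls. Its differences had opposite signs, 0.30 in experiment 1 and -0.72 in experiment 2 (mean -0.21 ± 0.23, limma's adjusted p = 0.629), and without the control of experiment 2 the mean was 0.16. SLC11A2, the metal transporter DMT1 that carries iron out of endosomes, read 6.69 and 7.16 after anti-miR-191 and 6.65 and 6.73 in controls. The treated array of experiment 2 stood above the other 3, and the mean difference was 0.24 ± 0.16 (limma's adjusted p = 0.393).

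FTL, the light chain of ferritin, in which cells store iron, read 12.17 on both anti-miR-191 arrays and 12.36 and 12.42 in controls. The groups did not overlap, and the difference was small, -0.18 and -0.25 in the experiments with a mean of -0.22 ± 0.14 (limma's adjusted p = 0.389). The start of the FTL transcript holds its iron-responsive element, and the stretch below (GRCh38.p14, chr19:48965333-48965358, plus strand, bases 25 to 50 of the RefSeq transcript) is shown because that element sets how much ferritin is made from a given level of mRNA. Capitals mark the loop.
FTL transcript start: gtctcttgcttcaaCAGTGTttggac
The pattern CNNNNNCAGTGN, a bulged C followed by the loop, was searched on the sense strand in the first 50 bases and was found in 1.67% of 35116 transcript starts over all genes. Of the 10 iron genes, 7 had a transcript start in the RefSeq table, and the pattern was found in FTL and in no other of these 7. A match describes the letters and does not show binding. An element further into a transcript, as in ferroportin, or in a 3′ end, as in TFRC, lies outside the bases searched.

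Of the 8 genes other than HAMP, 3 had groups that did not overlap, TFR2 and FTL on the lower side and SLC40A1 on the higher side, where 53.2% of all genes tested did not overlap (23.8% lower and 29.4% higher). The 8 genes other than HAMP had a median difference of -0.11, against 0.01 over all genes tested. TFRC and HFE had differences of opposite sign in the experiments, and the share of all genes with such a turn was not counted.

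**Figure D2:**
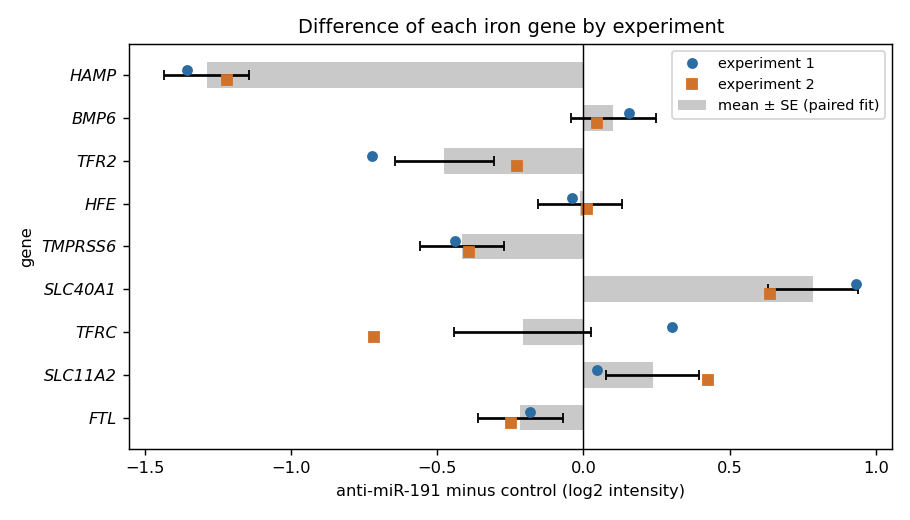
Log2 difference, treated minus control, of the 9 iron genes. Points are the 2 experiments, bars the mean, and error bars the SE of the paired limma fit. HAMP (-1.36 and -1.22) and SLC40A1 (0.93 and 0.64) lie farthest from 0 in opposite directions, TFR2 and TMPRSS6 lie below 0, and the points of TFRC lie on either side of it.

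**Figure D3:**
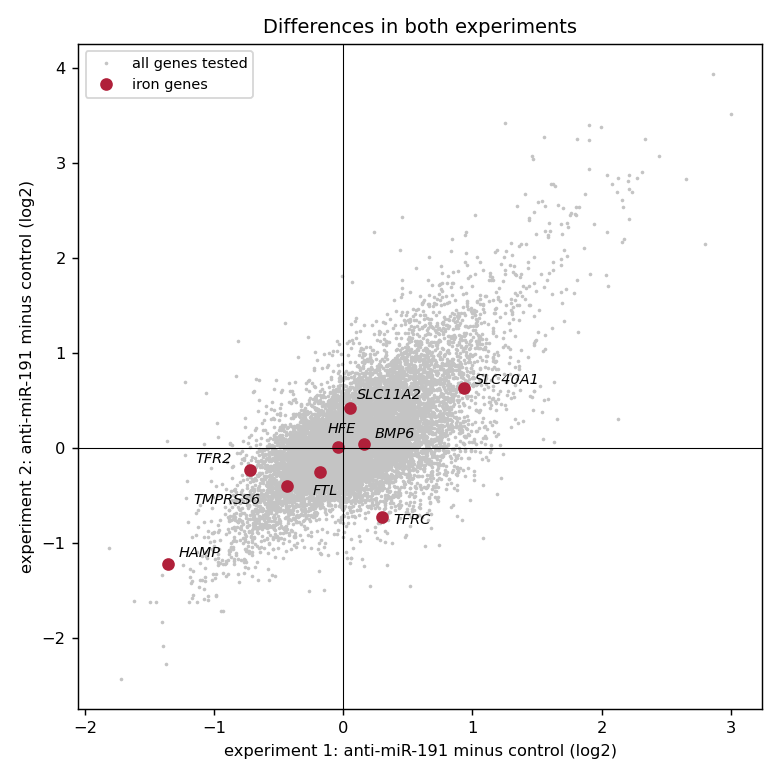
Difference in experiment 1 (horizontal) against experiment 2 (vertical), both on the log2 scale, for all 14147 genes tested in grey and the 9 iron genes in red. HAMP lies at the lower left edge of the cloud, SLC40A1 lies in its upper right part, and the other 7 iron genes lie within the dense part or near its border.

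The pathways around hepcidin were then read from 11 lists, none of which holds any of the 10 genes above. The lists name 119 genes, of which 98 were tested. In the paired fit 9 of the 98 rose (9.18%) and 4 fell (4.08%), where 10.1% of all genes tested rose and 3.77% fell, so the lists as a whole stood near the background. The median difference over the 98 genes was -0.04, against 0.01 over all genes.

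Among the ligands, receptors, receptor partners and SMAD proteins on the list of BMP signalling, SMAD5 alone passed. Of 13 tested, 1 rose (7.69%, against 10.1% of all genes tested) and 0 fell (against 3.77%), with a median difference of 0.04. SMAD5, 1 of the SMAD proteins that BMP receptors phosphorylate, read 5.40 and 6.15 after anti-miR-191 and 4.58 and 5.47 in controls. Its groups overlapped because both arrays of experiment 2 were higher, while the differences within the experiments were 0.82 and 0.68, and it rose 1.68-fold (limma's adjusted p = 0.016, and 0.293 in the unpaired fit). SMAD1, a close relative of SMAD5, had a difference of 0.09 ± 0.15 and their shared partner SMAD4 of 0.26 ± 0.14. The type I receptor ACVR1 had a difference of 0.14 ± 0.16, and the co-receptor HJV, hemojuvelin, of -0.23 ± 0.16. BMPR1A was not analysed here.

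The genes that BMP and SMAD signalling induces did not move together. Of 6 tested, 2 rose (33.3%, against 10.1% of all genes tested) and 0 fell (against 3.77%). The list's median was -0.07, with -0.25 in experiment 1 and 0.17 in experiment 2. The other 4 genes, ID1, ID3, SMAD6 and ATOH8, were each lower in experiment 1 and higher in experiment 2, and the median turned to 0.11 with the treated array of experiment 1 left out and to 0.10 with its control left out. SMAD7, the inhibitory SMAD that also represses HAMP, read 7.88 and 8.67 after anti-miR-191 and 6.08 and 6.22 in controls. Every treated array lay above every control, with differences of 1.80 and 2.46, and SMAD7 rose 4.38-fold (limma's adjusted p = 0.0017, and 0.025 in the unpaired fit). ID2 read 8.69 and 9.72 after anti-miR-191 and 7.60 and 8.28 in controls and rose 2.40-fold (limma's adjusted p = 0.0043, and 0.123 in the unpaired fit).

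ID1, the BMP target most often read beside HAMP in hepatocytes, read 10.26 and 10.36 after anti-miR-191 and 10.55 and 10.24 in controls. Its groups overlapped and its differences were -0.30 and 0.12 (mean -0.09 ± 0.16, limma's adjusted p = 0.775). The inhibitory SMAD6 had a mean difference of -0.09 ± 0.15.

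Genes of the interleukin-6 pathway were higher in part. Of 5 tested, 3 rose (60%, against 10.1% of all genes tested) and 0 fell (against 3.77%), with a median of 0.82. IL6 and JAK2 were left out as dim, and with them kept 3 of 7 rose. SOCS3, the feedback inhibitor of the receptor, read 6.71 and 6.73 after anti-miR-191 and 5.26 and 5.22 in controls. The groups were far apart against an SD of 0.02 and 0.03, and SOCS3 rose 2.78-fold (limma's adjusted p = 0.0022, and 0.021 in the unpaired fit). The kinase JAK1 rose 1.78-fold and the receptor chain IL6R rose 1.70-fold (limma's adjusted p = 0.014 and 0.015). In the unpaired fit JAK1 and IL6R missed the threshold, with an adjusted p of 0.079 and 0.055. STAT3 itself had differences of 0.53 and -0.06 (mean 0.24 ± 0.18, limma's adjusted p = 0.454). The acute phase genes that STAT3 induces in liver did not pass. CRP, SAA1, SAA2 and LBP were left out as dim. Of 5 tested, 0 rose and 0 fell, against 10.1% and 3.77% of all genes tested. All 5 had a mean difference below 0 (median -0.23, with 0.01 in experiment 1 and -0.53 in experiment 2). With no filter on dim rows 9 genes were tested, 0 rose and 0 fell, and the median was -0.17.

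Of the liver transcription factors known to act on HAMP, 0 of 5 passed. On the list of proteases that process hepcidin or hemojuvelin, 0 of 6 passed. Its proteases are FURIN and PCSK7, and its other genes encode protease inhibitors. Of all genes tested 13.9% passed. The median differences of the 2 lists were -0.10 and -0.05. FURIN, the convertase that cuts prohepcidin, read 9.09 and 9.20 after anti-miR-191 and 8.89 and 8.88 in controls (0.26 ± 0.15, limma's adjusted p = 0.295).

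**Figure D4:**
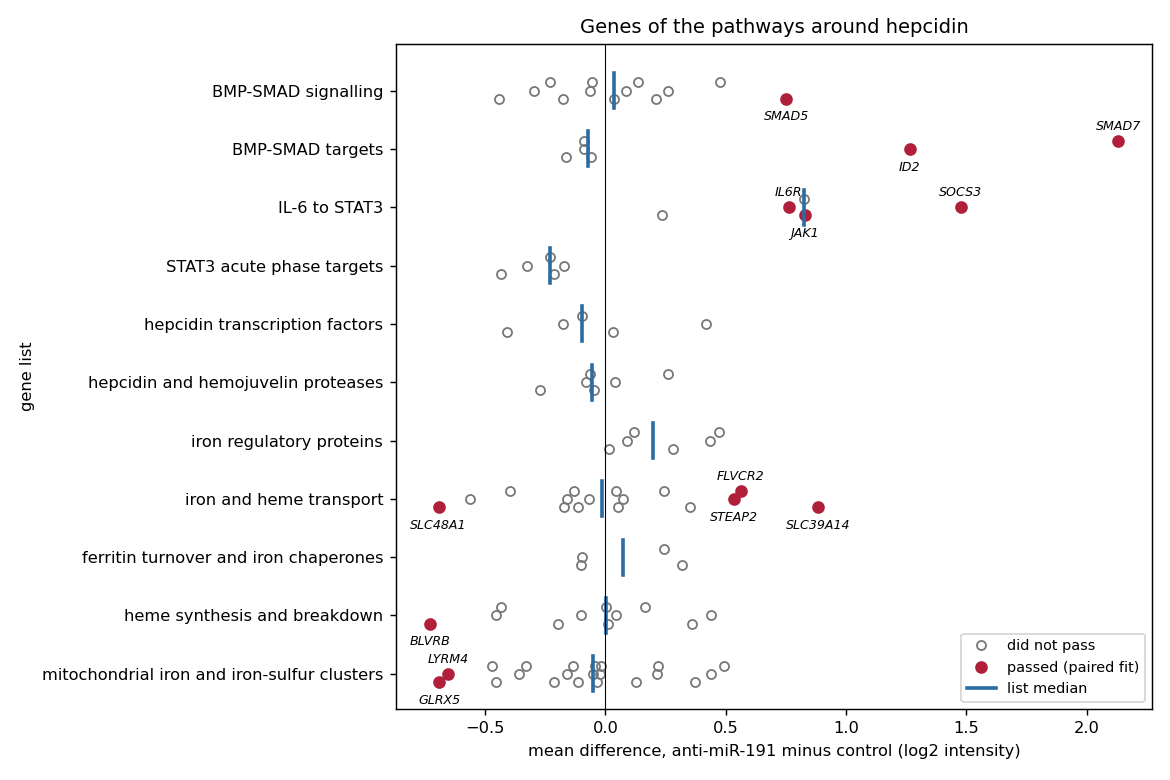
Mean log2 difference, treated minus control, of each tested gene in the 11 lists around hepcidin. Filled red points passed the paired limma test, open points did not, and blue bars are list medians. SMAD7 (2.13), SOCS3 (1.48) and ID2 (1.26) stand farthest to the right, while BLVRB, SLC48A1, GLRX5 and LYRM4 stand to the left.

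The genes that read iron inside the cell did not pass. Of 6 genes on the list of iron regulatory proteins and their partners, 0 rose and 0 fell, against 10.1% and 3.77% of all genes tested. The list's median was 0.20 (0.39 in experiment 1 and 0.04 in experiment 2). ACO1, iron regulatory protein 1, read 6.94 and 6.45 after anti-miR-191 and 6.56 and 6.81 in controls, so its differences had opposite signs (0.38 and -0.35), as those of TFRC had. FBXL5, the iron-binding ubiquitin ligase subunit that removes iron regulatory protein 2, had differences of 0.40 and 0.47 (mean 0.44 ± 0.14, limma's adjusted p = 0.091). IREB2, the gene of iron regulatory protein 2, was not analysed here. Of 4 genes of ferritin turnover and iron chaperones 0 passed, against 13.9% of all genes tested. Among these 4 was NCOA4, the receptor that delivers ferritin to the lysosome (0.25 ± 0.20).

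Carriers and transporters of iron and heme moved both ways. Of 16 tested, 3 rose (18.8%, against 10.1% of all genes tested) and 1 fell (6.25%, against 3.77%), with a median of -0.01. SLC39A14, the ZIP14 transporter that takes up iron not bound to transferrin, read 8.29 and 8.25 after anti-miR-191 and 7.37 and 7.40 in controls. The groups were far apart against an SD of 0.03 and 0.02, and SLC39A14 rose 1.84-fold (limma's adjusted p = 0.0096, and 0.034 in the unpaired fit). FLVCR2 and the metalloreductase gene STEAP2 rose 1.48-fold and 1.45-fold with limma's adjusted p of 0.044 and 0.049, and both lost the call under each of the scalings tried. SLC48A1, which moves heme out of lysosomes, read 6.54 and 6.59 after anti-miR-191 and 7.38 and 7.14 in controls and fell by 0.69 ± 0.15 (limma's adjusted p = 0.024, and 0.067 in the unpaired fit).

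The plasma carriers made by hepatocytes did not pass. Transferrin, TF, read 11.07 and 10.50 after anti-miR-191 and 11.04 and 10.84 in controls (-0.16 ± 0.16, limma's adjusted p = 0.579). The ferroxidase ceruloplasmin, CP, read 5.02 and 4.0 after anti-miR-191 and 4.99 and 5.16 in controls. The treated array of experiment 2 stood apart from the other 3 for CP, with differences of 0.03 and -1.15 (limma's adjusted p = 0.205).

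Of 11 genes of heme synthesis and breakdown 0 rose (against 10.1% of all genes tested) and 1 fell (9.09%, against 3.77%). BLVRB, a biliverdin reductase, read 6.54 and 6.49 after anti-miR-191 and 7.23 and 7.26 in controls, and fell by 0.73 ± 0.14 (limma's adjusted p = 0.017, and 0.049 in the unpaired fit). HMOX1, the inducible enzyme that opens heme and frees its iron, had a difference of 0.16 ± 0.15 (limma's adjusted p = 0.537). Of 21 genes of mitochondrial iron and iron-sulfur clusters 0 rose and 2 fell, 9.52% against 3.77% of all genes. GLRX5, which passes new clusters on to their targets, fell by 0.69 ± 0.15, and LYRM4, a subunit of the complex that builds them, fell by 0.65 ± 0.15 (limma's adjusted p = 0.024 and 0.025). Neither passed in the unpaired fit (adjusted p = 0.161 and 0.077). GLRX5 had 2 rows, and with the mean of a gene's rows in place of the brightest it lost its call. In that setting 1 of the 21 genes fell.

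The genes whose 4 values, each centred on the gene's own mean, lay nearest to those of HAMP were ATP5ME, NAA38, SMDT1, ANAPC11 and BST2. Their Euclidean distances from HAMP over the 4 arrays ran from 0.175 (ATP5ME) to 0.235 (BST2) on the log2 scale. ATP5ME, a subunit of the mitochondrial ATP synthase, read 8.83 and 9.12 after anti-miR-191 and 9.99 and 10.42 in controls. BST2, an interferon-induced membrane protein, read 6.87 on both anti-miR-191 arrays and 8.06 and 8.29 in controls. In all 5 both treated arrays lay below both controls, which follows from choosing them by likeness to HAMP.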

How the data were processed

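Total RNA of 4 HepG2 cultures, 2 per group, was hybridised to Affymetrix arrays. The authors deposited log2 intensities, and the submitters' processing notes name RMA and Affymetrix Expression Console. The software version and the set of arrays normalized as a batch are not given in the sources, and the log base was inferred from the values, which fit the usual scale of RMA. These values carry no counting depth, so the number of arrays limits precision. GEO's platform annotation gave 19460 rows a symbol of their own, 1754 rows more than 1 symbol and 12083 rows no symbol; only the first kind was used. The 33.3% of rows with the lowest mean over the 4 arrays were left out and the brightest row per gene was kept. Genes were tested with limma 3.58.1 (lmFit, eBayes) in R 4.3.3 by two-sided tests, and p-values were adjusted over 14147 genes by Benjamini-Hochberg. The main fit kept the experiment as a block (1 residual degree of freedom, 6.60 prior), and the alternative left it out (2 residual, 4.32 prior). The pairing rests on the design text, in which each repeat was an independent study, and on the replicate numbers in the titles; deviations of same-numbered arrays correlated at 0.335 across genes. The code of the fits was run on simulated data with far fewer changed genes than limma called here. That run checks the code and not the calls on these arrays. Of the lists, genes past the threshold are named (at most 5 per list, by size), with 21 regulators and the 5 genes nearest HAMP named whatever their values; TTR, ALB, APOA1, KRT8, ID3 and ATOH8 were named after their values were seen. The members and lists were chosen with earlier results of these data known. Sequences are from RefSeq tables (GRCh38.p14); 1 sequence result is not reported here. Alternatives covered the block, the filter, scaling, moderation, the row per gene and single arrays. Figures were drawn with matplotlib 3.10.9.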

Additional observations from a re-analysis of the deposited data

How the results depend on the processing

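Without the replicate block, limma called 553 genes in place of 1961, 0 of the 8 iron genes other than HAMP (1 at an unadjusted p under 0.05) in place of 1, and 4 of the 98 genes of the lists in place of 13. With single arrays left out, which allows only the unpaired fit and assumes that the lone array varies like the other group, the counts of called genes ran from 0 to 339, of iron genes from 0 to 0 and of list genes from 0 to 3. With the treated array of experiment 1 left out the count of called genes was 339, and with any other array left out it was 0 (limma counted 1663, 2432 and 3178 at an unadjusted p under 0.05). Under quantile normalization limma's paired fit called 1419 genes, with 896 higher in place of 1428 and 523 lower in place of 533. Cyclic loess gave 1246 higher and 553 lower, and median centring 1268 and 484. The difference of HAMP stayed between -1.45 and -1.12 with single arrays left out, and between -1.40 and -1.29 under the 3 other scalings (quantile normalization, cyclic loess and median centring). SLC40A1 kept its call under the 7 other paired settings (adjusted p between 0.013 and 0.047), with a difference of 0.65 after quantile normalization, but lost it with every array left out (adjusted p between 0.104 and 0.268). Of the 13 called list genes, 10 kept their call under all 7 paired settings, STEAP2, FLVCR2 and GLRX5 being the exceptions, and SMAD7, SOCS3, SLC39A14 and BLVRB passed without the block too. Without the block, or with single arrays left out, 1 residual spread from 2 groups of at most 2 arrays limits what can be called.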

Other observations

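Several iron and liver genes beside TFRC and ACO1 differed between the experiments, and those differences were not tested. IL6ST, the shared receptor chain of the interleukin-6 family, had differences of 1.55 in experiment 1 and 0.10 in experiment 2, and the control of experiment 1 (4.29) stood below the other 3 arrays (5.66 to 5.84). The apolipoprotein gene APOB had differences of 0.02 and -1.09, alpha-fetoprotein, AFP, of 0.16 and -1.24, and the fibrinogen chain FGB of 0.01 and -0.88. EPAS1, the hypoxia-inducible factor whose mRNA carries an iron-responsive element, was higher in both experiments (0.68 and 0.27, mean 0.47 ± 0.16) and did not pass (limma's adjusted p = 0.101). FECH, the enzyme that inserts iron into heme, had differences of 0.36 and 0.51, while UROS and UROD, enzymes of earlier steps of heme synthesis, had mean differences of -0.46 and -0.43, and none of these 3 passed in limma's paired fit (adjusted p between 0.080 and 0.104). These genes were chosen after their values were seen.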
